A study of Cinachyrella cavernosa with 3 samples.

Results

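Of 869 coding sequences (CDS) compared across wound healing in the marine demosponge Cinachyrella cavernosa, 137 were lower during regeneration and higher again once the wound had healed. They are called transiently lowered here. The members were chosen by their read counts in the same libraries in which they are described: a CDS had to be listed in all 3 tables with at least 20 reads in one, its scaled count during regeneration had to be at most 0.5 of that before the wound, and its scaled count after regeneration had to be above 0.5 of that before. The tables listed 3229 CDS in any library and 887 in all 3, of which 18 fell under the read filter. A scaled count is a read count divided by the size factor of its library, which was 0.983 in unwounded, 0.879 in regenerating and 1.15 in healed tissue.

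The groups were sponge tissue taken before wounding, tissue taken during regeneration and tissue taken after regeneration, with 1 library each. All the animals had been acclimatized and fed in aquaria and were then moved in triplets to smaller tanks. The wounds imitated fish bites, per the labels' protocols, and the tissue before wounding is the control. Sampling times, the number of animals per library and any strain or age were not stated in the sources used here. With 1 library per stage there was no spread between samples, so no test was run, and each interval below covers counting error only. It says nothing of how animals differ.

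Demosponges pump water through canals and chambers with flagellated choanocytes, and hold mobile archaeocytes, which act as stem cells, in the matrix between. After injury a sponge closes the surface with flat epithelium-like pinacocytes, gathers mobile cells under it and rebuilds canals and chambers, in part from cells that change type. Genes of the undisturbed filtering tissue and genes of the rebuilding tissue would both be found in such bulk RNA. The tables name each CDS only by a CDS and a Unigene number, the files do not pair these numbers with gene names, and no sequence or annotation was used here. No member could therefore be given a function, a protein or a pathway, no marker of choanocytes, pinacocytes or archaeocytes could be looked up, and the labelled tissue could not be checked against markers.

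As a body, the transiently lowered CDS held a small part of the reads during regeneration. They took 9.55% of the reads before the wound (95% Clopper-Pearson interval 9.458 to 9.643), 1.85% during regeneration (1.809 to 1.882) and 7.04% after regeneration (6.972 to 7.116). In reads these were 73838, 19598 and 68004. Some reads may be counted for several CDS of identical counts, which the intervals do not cover. With 1 CDS per set of identical counts the shares were 7.92%, 1.62% and 5.89%. The median member had 244 reads in unwounded, 62 in regenerating and 228 in healed tissue. Over the members, reads ran from 14 to 6934 in unwounded, from 6 to 2042 in regenerating and from 14 to 8798 in healed tissue. The rule sets the direction of these values, so they describe the members and support nothing. In bulk tissue, fewer cells of a type and less RNA per cell cannot be told apart.

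**Figure D1:**
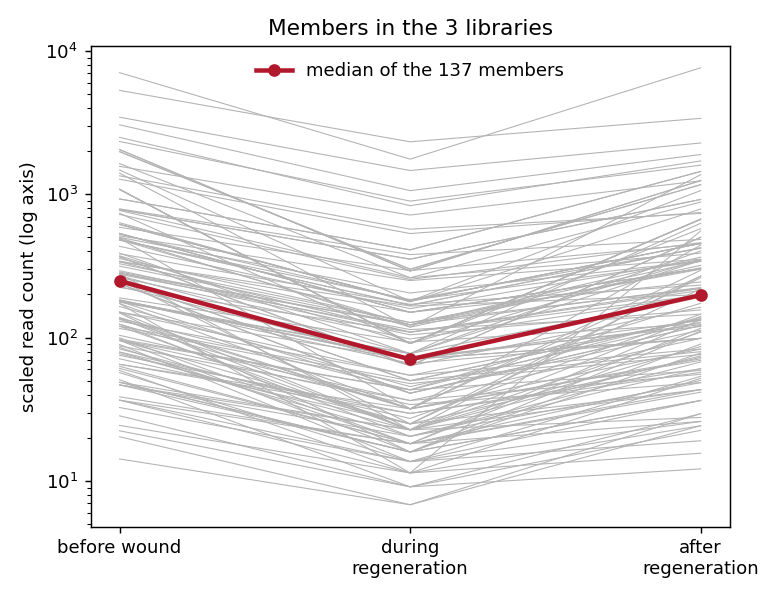
Scaled read count (log axis) of each of the 137 members in the 3 libraries, as grey lines, with the median over members in red. The median was 248.3 in unwounded, 70.5 in regenerating and 197.8 in healed tissue, and the members covered a range of more than 100-fold at every stage.

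Library composition moved with this comparison. The 10 most abundant CDS took 44.1% of reads in unwounded, 68.5% in regenerating and 52.4% in healed tissue, and no member was among them (0 of 137). Median-of-ratios factors take the typical CDS as unchanged between libraries. Scaled by library totals, the median CDS of all 869 was shifted by -0.64 on the log2 scale during against before and by -0.15 after against before, and 242 CDS met the rule in place of 137, with 130 of the 137 among them. The members were thus lower relative to the typical CDS, and whether the amount of their RNA per cell was lower was not tested.

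The dip was mostly moderate. During regeneration 211 of 869 CDS (24.3%) were at 0.5 of the before-wound level or less, and the 137 members (15.8% of those compared) are the part of them that stood above 0.5 after regeneration. Their median during-over-before ratio was 0.335, with the middle 50% between 0.213 and 0.418, against a median of 0.985 over all 869. Of the members, 70 were 2-fold to 3-fold lower during regeneration, 24 were 3-fold to 4-fold lower, 31 were 4-fold to 8-fold lower and 12 were at least 8-fold lower. The 43 members at least 4-fold lower compare with 85 of 869 CDS (9.78%) that were so far down, a share that the rule itself makes higher among members. Many members lay close to the bound within counting error: the 95% interval of the ratio lay wholly under 0.5 for 68 and included 0.5 for 69. It lay wholly under 1 for 127, while the 10 members whose interval included 1 all had 48 reads or fewer before the wound. Over all 869 CDS the interval lay wholly under 0.5 for 118 and wholly under 1 for 301. The members were chosen on this same ratio and the intervals take no account of that, so these counts are description only.

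**Figure D2:**
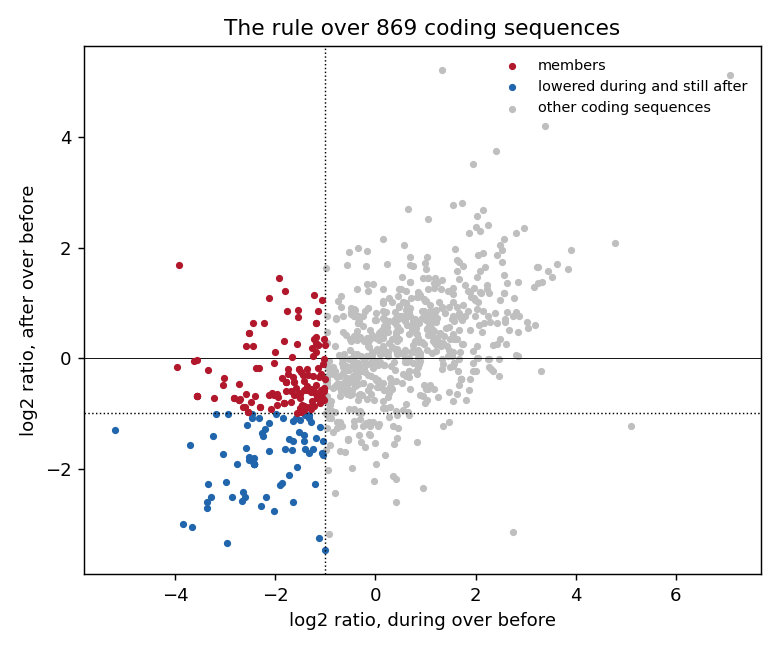
Log2 ratio of scaled counts during over before (x) against after over before (y) for the 869 CDS compared, with the 137 members in red, the 74 CDS that were lowered during and still after regeneration in blue and the others in grey. Dotted lines mark 0.5 of the before-wound level on each axis. The before-wound library is the lower term of both ratios, so the axes are not independent, and most members lie under the solid line of equal levels.

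The deepest dip belonged to CDS_28208_Unigene_43952 (372 bases), which had 486 reads in unwounded, 28 in regenerating and 510 in healed tissue. Its scaled count was 31.9 during regeneration, against 494.5 before, a 15.5-fold lower level with a log2 ratio of -3.96 (95% interval -4.85 to -3.18). Its level after regeneration was 0.895 of that before (0.748 to 1.07), an interval that includes equal levels. Nearly as deep was CDS_40420_Unigene_63274 (375 bases), with 170, 10 and 640 reads before, during and after. Its log2 ratio during over before was -3.93 (-5.59 to -2.65). Unlike the first, it ended far above its starting level, and the same 10 reads during regeneration gave it the highest after-over-during ratio of the members, 48.8-fold (20.7 to 151.3). CDS_28208_Unigene_43952 came next on that ratio at 13.9-fold (8.13 to 25.8). The authors' FPKM values of these CDS (fragments scaled by CDS length and library size, for some CDS from only a part of their reads) were lowest during regeneration as well. CDS_28208_Unigene_43952 had 3695.48, 144.95 and 3101.18 FPKM before, during and after. CDS_40420_Unigene_63274 had 1271.97, 51.01 and 3831.24 FPKM.

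All 12 members that were at least 8-fold lower during regeneration had 146 to 1452 reads before the wound (median 894), 10 to 158 during (median 80) and 104 to 1580 after regeneration (median 718). They form 9 distinct profiles, since 4 of them share the same counts. Only CDS_40420_Unigene_63274 of the 12 was above its before-wound level after regeneration, and the other levels were 0.607 of before or more. Levels after regeneration can also be listed by the depth of the dip. The 43 at least 4-fold lower had a median after-over-before ratio of 0.636 (0.510 to 3.21), and the 94 with a smaller dip had 0.713 (0.504 to 2.74). These ratios share the before-wound library with the dip, so no relation between them was computed.

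Most members ended below their before-wound scaled count. After regeneration 105 of the 137 were still under the before-wound level, where 452 of all 869 CDS (52.0%) were, and 32 were above it. The median member stood at 0.684 of its before-wound level, with the middle 50% between 0.607 and 0.965, against 0.962 for all 869. Between 0.5 and 0.75 of the before-wound level lay 80 members, between 0.75 and 1 lay 25, between 1 and 1.5 lay 18, and above that up to 2-fold lay 8. Of all 869 CDS, these bands held 175, 148, 165 and 123. The 131 within 2-fold of the before-wound level compare with 611 of 869 (70.3%), and the rule bars members from lying below that range. Its lower bound also cuts off the members' distribution, so the median reads as a description of the chosen CDS. The rule favours high before-wound counts as well. Such counts lower the after-over-before ratio by themselves, and their part in these values was not tested. By counting error, 70 members were lower after regeneration than before, 19 were higher, and the interval of 48 included equal levels. Of all 869 CDS, 279 were lower, 239 were higher and 351 included equal levels. For 54 members the interval included 0.5, and these could fall to either side of the bound at this depth. Over all 869 CDS it included 0.5 for 231.

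**Figure D3:**
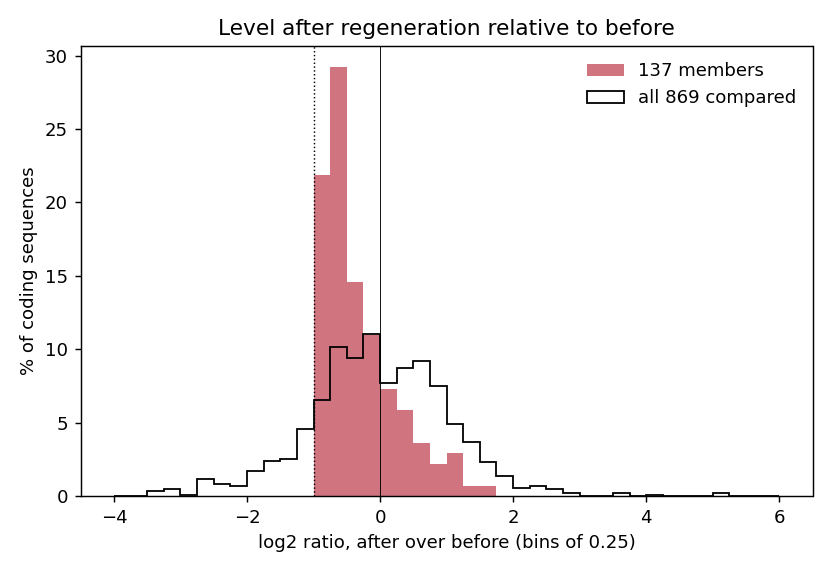
Distribution of the log2 ratio of scaled counts after over before, in bins of 0.25, for the 137 members (red) and all 869 CDS compared (black outline), each as a percentage of its own total. The dotted line marks the bound of the rule at 0.5 of the before-wound level; the members pile up just above it, with a median ratio of 0.684, while all CDS centre near 0.962.

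Set against the regenerating tissue, healed tissue had a median member level 2.51-fold higher. The gain was under 2-fold for 45 members, 2-fold to 4-fold for 58 and at least 4-fold for 34. In all, 150 of 869 CDS (17.3%) were at least 2-fold higher after than during regeneration, and 92 of them were members, a number that the rule favours. The rule fixes that every member had a higher scaled count after regeneration than during it, and the lowest after-over-during ratio was 1.20.

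An overshoot was seen in 6 of the 137 members: their level after regeneration was at least 2-fold that before the wound, as it was for 129 of 869 CDS (14.8%). Their reads ran from 14 to 266 before the wound (median 153), from 6 to 68 during regeneration (median 25) and from 34 to 724 after it (median 402). For 1 of the 6, CDS_17588_Unigene_27351 with 14, 6 and 34 reads, a CDS singled out after its values were seen, the ratio of 2.07 had an interval of 0.816 to 5.91 that included equal levels. The highest was CDS_40420_Unigene_63274, at 3.21-fold (95% interval 2.52 to 4.13). Second came CDS_4488_Unigene_6957 (576 bases), with 94, 22 and 302 reads before, during and after, a level after regeneration 2.74 times that before the wound (1.96 to 3.89). Its dip was 3.82-fold, with an interval of the during-over-before ratio of 0.122 to 0.512 that just reached the bound. None of the 6 shared its counts with another CDS. The 32 members that ended above the before-wound level were less abundant to begin with than the other 105, with median scaled counts of 137.4 against 276.8 before the wound. Their median dip was like that of the others, with during-over-before ratios of 0.342 against 0.326. A low before-wound count raises the after-over-before ratio by itself, and its part in the difference was not tested.

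At the other end, CDS_49027_Unigene_76713 (387 bases) stayed closest to the bound, with 758 reads in unwounded, 230 in regenerating and 448 in healed tissue. Its level after regeneration was 0.504 of that before (0.425 to 0.596), and its dip was 2.95-fold. CDS_36222_Unigene_56642 (357 bases) was next, with 94, 30 and 56 reads and a ratio of 0.508 (0.306 to 0.828). Its FPKM was 136.89 before, 73.71 during and 65.65 after regeneration, so by FPKM it was lowest after regeneration and showed no return. FPKM kept an estimated 17.3% of its read pairs in unwounded, 43.2% in regenerating and 17.8% in healed tissue, so its FPKM rests on the smaller part of its reads. Just outside, CDS with 222, 36 and 130 reads and with 6132, 1378 and 3592 reads before, during and after had after-over-before ratios of 0.4992 and 0.4994. On the bound of the dip, the members just inside had during-over-before ratios of 0.497 and 0.499, from 36 and 578 reads before the wound, and those just outside had 0.501 and 0.506, from 58 and 398 reads. The bounds thus pass between CDS of nearly the same ratios.

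Several members were abundant transcripts. Of the 869 CDS ranked by reads, members made up 22 of the 100 most abundant before the wound, 6 of the 100 during regeneration and 21 of the 100 after it. Members were 15.8% of the 869 CDS, and the rule itself favours high counts before the wound and low counts during regeneration. At least 1000 reads were held by 20 members in unwounded, by 3 in regenerating and by 18 in healed tissue. The most abundant before the wound and after regeneration was CDS_47399_Unigene_74181 (747 bases), with 6934 reads in unwounded, 1546 in regenerating and 8798 in healed tissue. Its scaled count was 4.01-fold lower during than before (log2 ratio -2.00, interval -2.12 to -1.89), and after regeneration it stood at 1.08 of the before-wound level (1.03 to 1.13). Its FPKM was 16488.72, 1321.72 and 16636.77, a deeper dip, and kept an estimated 93.7% of its pairs in unwounded, 46.4% in regenerating and 92.4% in healed tissue. CDS_39507_Unigene_61871 (357 bases), second at those stages and first among members during regeneration, had 5218, 2042 and 3904 reads. Its level was 2.29-fold lower during than before (log2 ratio -1.19, -1.30 to -1.09). After regeneration it stood at 0.638 of the before-wound level (0.601 to 0.677), an interval wholly under 1. Its FPKM of 43183.03, 11423.9 and 25768.34 kept nearly all pairs at each stage. Together the 10 most abundant members held 42.3% of the members' reads in unwounded, 47.4% in regenerating and 40.7% in healed tissue.

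**Figure D4:**
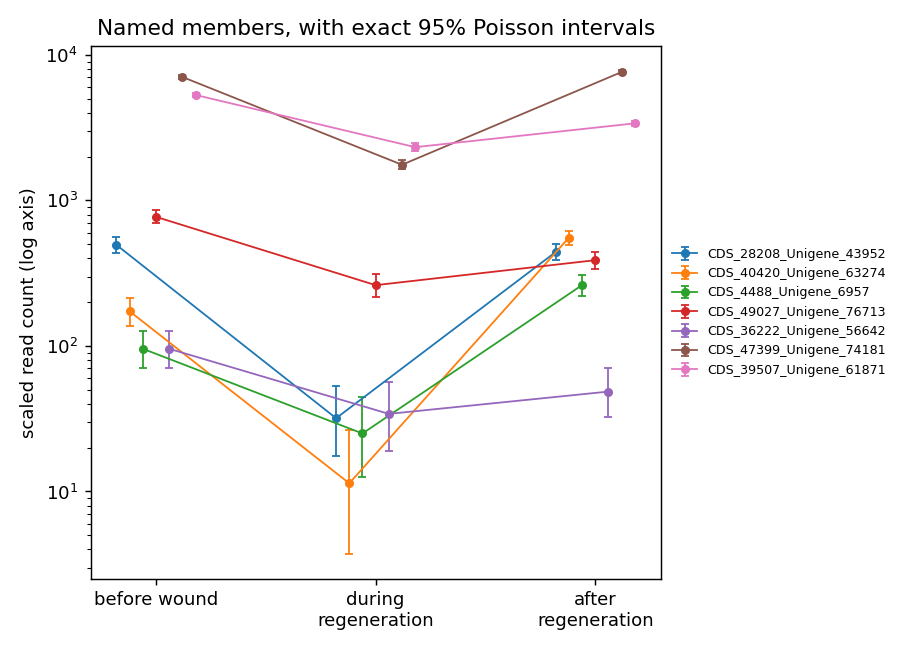
Scaled read counts (log axis) of the 7 members named by the rule, in the libraries of unwounded, regenerating and healed tissue, with exact 95% Poisson intervals on read pairs that cover counting error only. All 7 have their lowest point during regeneration, CDS_40420_Unigene_63274 and CDS_4488_Unigene_6957 end above their start, and CDS_49027_Unigene_76713 and CDS_36222_Unigene_56642 end near 0.5 of it.

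Members made up a larger share of the CDS that were abundant before the wound, as did the CDS that stayed lowered. In quartiles of the before-wound scaled count, from low to high, 5.80%, 12.7%, 21.2% and 23.6% of the CDS were members (13 of 224, 27 of 212, 46 of 217 and 51 of 216). The 74 CDS still lowered after regeneration made up 1.34%, 8.49%, 10.1% and 14.4% of the same quartiles, and the 146 raised in the mirrored way (at least 2-fold of the before-wound level during regeneration and under 2-fold after it) made up 26.3%, 18.4%, 11.1% and 11.1%. The before-wound level is also the lower term of the ratio that chose all of these groups. Ranked by the mean of the 3 libraries instead, an ordering added after the data had been seen, the shares were 11.9%, 14.7%, 19.4% and 17.1%, a smaller range. Under either ranking a CDS also had to be listed during regeneration. The 433 CDS listed before and after but not during had a median of 44 reads before the wound. What their absence does to the shares was not tested. The 74 CDS, which stayed at or under 0.5 of the before-wound level, started from a like level to the members: the median before the wound was 244 reads for the members and 232 for these CDS. The members' dip was the smaller, at a median ratio of 0.335 during over before, against 0.213. The difference was not tested, and both groups were cut from the same ratios.

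**Figure D5:**
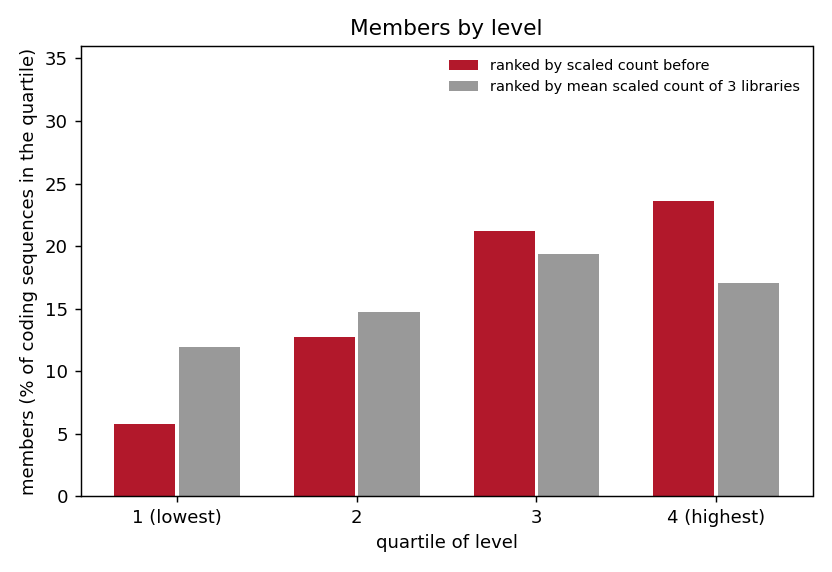
Members as a percentage of the CDS in each quartile of level, ranked by the scaled count before the wound (red) or by the mean of the 3 libraries (grey). The rise from 5.80% to 23.6% over the red bars shrinks to between 11.9% and 19.4% over the grey bars.

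Length was not used by the rule. Members were 297 to 1320 bases long with a median of 372, against a median of 381 for all 869 CDS and 393 for those still lowered after regeneration. From the shortest to the longest quartile of CDS, 17.8%, 16.6%, 15.5% and 13.1% were members. These shares differ little and were not tested.

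CDS that shared their length and counts with another CDS were more frequent among the members than among the others. Of the 137, 30 (21.9%) belonged to 13 sets of CDS with 1 common length and exactly equal reads at each of the 3 stages, against 58 of the other 732 CDS (7.92%), a difference that was not tested. Among the CDS still lowered after regeneration 7 of 74 (9.46%) were in such a set, and among the 146 whose regenerating level was 2-fold or more, and whose healed level was under 2-fold, of the unwounded one, 17 (11.6%) were. Members of a set are not separate evidence of a dip, and with each set counted once the 137 members gave 120 profiles. The largest set held 4 CDS of 315 bases, each with 1064 reads in unwounded, 80 in regenerating and 772 in healed tissue, a during-over-before ratio of 0.0841. Each of the 4 was given 2916.83, 144.21 and 1670.18 FPKM. A pair of 564 bases had 2016, 256 and 1436 reads, and a pair of 495 bases had 1950, 264 and 1346 reads. Both pairs carry consecutive Unigene numbers.

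One pair showed how far counts and FPKM can part. Both CDS were 1080 bases long and had 768 reads in unwounded, 310 in regenerating and 1062 in healed tissue. The FPKM of one was 990.64, 24.68 and 1043.86 at these stages, and that of the other was 206.45, 321.37 and 310.6. The read counts place both among the transiently lowered CDS, while the FPKM of the second was higher during regeneration than before. Over all members, 4 of 137 had an FPKM of 0 at some stage, as did 20 of all 869 CDS. CDS_6588_Unigene_10178, singled out after its values were seen, had it at every stage, with 2454, 732 and 1970 reads. The other 133 members had an FPKM above 0 in every library. With FPKM divided by its own median-of-ratios factors, 131 of these were lower during regeneration than before and 2 were higher, 122 were at 0.5 or less, and 116 met the whole rule. Median FPKM ratios were 0.330 during over before and 0.693 after over before. FPKM comes from the same libraries and is no independent check.

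Some members carried neighbouring Unigene numbers, at a share near that of all CDS compared. A CDS with a consecutive number was among the 869 for 16 of the 137 members (11.7%) and for 80 of all 869 (9.21%). Among the 869 CDS there were 44 pairs with consecutive numbers, of which 7 had both CDS among the members and 6 had one. Length and counts were identical in 8 of the 44 pairs and in 3 of the 7. In the other 4 of the 7 they were not, as for CDS_47399_Unigene_74181, whose neighbour of 303 bases had 1380, 104 and 1580 reads. In scaled counts that neighbour had 0.0843 of its before-wound level during regeneration and 0.976 of it afterwards, a deeper dip with a like return. Its FPKM of 808.9, 235.39 and 422.83 before, during and after kept an estimated 4.74%, 28.2% and 2.80% of its pairs. By FPKM its dip was the smaller of the 2 and its return the less complete. What consecutive numbers mean in this assembly is not given in the sources used here.

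A CDS absent from the table of regenerating tissue cannot be a member, whatever its level. Another 433 CDS were listed before the wound and after regeneration but not during it. Of these, 381 had at least 20 reads in one of those libraries and 265 of the 381 also stood above 0.5 of the before-wound level after regeneration. Their reads during regeneration are unknown and were not taken as 0, although the fewest reads listed there were 4. The 137 members therefore cover only CDS that were still listed during regeneration.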

How the data were processed

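Messenger RNA of sponge tissue was sequenced from paired-end Illumina TruSeq stranded libraries, per the labels' protocols. The deposited tables give read counts, lengths and FPKM values per CDS, per the file headers. The submitters' processing notes name RSEM, Trimmomatic and FastQC. How the assembly was made, how reads were aligned and why a CDS was listed were not stated in the sources used here. Every deposited count is even, so 2 reads were taken as 1 pair for intervals. The counts of the CDS listed for unwounded, regenerating and healed tissue summed to 773142, 1062098 and 965464 reads. Library totals and shares of reads refer to these sums, which leave out reads of CDS not listed.

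Median-of-ratios factors were computed over 887 CDS with numpy 2.4.6 and pandas 2.3.3, and ratios carry no pseudocount. Intervals are exact conditional binomial, Clopper-Pearson or Poisson at 95% (scipy 1.17.1). TMM factors for an alternative came from edgeR 4.0.16. The share of pairs kept by FPKM is an estimate: pairs over FPKM were set against the 0.2 quantile of the 61 CDS nearest in length with at least 10 pairs. The rule was run on simulated counts with known changes and counting error only. Such counts hold no difference between animals, so the run says nothing of the dips seen here. The members, lists and alternatives were chosen with earlier results of these data known. Named members are, among the 137, those with the 2 lowest during-over-before ratios, the 2 highest and the 2 lowest after-over-before ratios, the 2 highest before-wound counts and the 2 highest after-over-during ratios.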

Additional observations from a re-analysis of the deposited data

How the results depend on the processing

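No setting tests a difference between stages, and no replicate could be left out. No paired analysis was possible because each stage has 1 library. Depth limits the low members most: 38 of the 137 had under 100 reads before the wound.

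Library totals and deposited FPKM without rescaling enlarged the group. They gave 242 and 238 members, of which 233 and 228 were within 2-fold of their start afterwards, 83 and 85 were at least 4-fold lower during regeneration, and 130 and 111 were among the 137. With FPKM, 10 members were at least 2-fold above their start, and the median log2 ratios were -0.33 after over before and 1.55 after over during. Those members took 22.3%, 7.54% and 18.1% of reads before, during and after, and with library totals 24.3%, 7.81% and 19.3%. FPKM divided by median-of-ratios factors gave 138 members, 116 of them among the 137, with 11.9%, 2.88% and 9.34% of reads.

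Where FPKM had to keep at least 90% of pairs at every stage, which leaves 561 CDS, 80 members met the rule, 76 of them within 2-fold afterwards and 20 at least 4-fold lower during. Their median log2 ratio after over during was 1.15, and they took 4.63%, 1.07% and 3.17% of reads. Of these members 0 were in sets of identical counts, a value that the filter favours. In the largest set, FPKM kept an estimated 24.4% of pairs in unwounded tissue. One CDS per identical set gave 120 members, by construction 0 in sets, with 7.92%, 1.62% and 5.89% of reads.

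TMM gave 135 members (129 among the 137) with 10.4%, 1.93% and 7.40% of reads. Leaving the most abundant CDS out of the scaling gave 135 (133 among the 137) with 10.2%, 1.93% and 7.33%. A filter of 100 reads gave 107 with 9.35%, 1.80% and 6.89%, and no filter left all values as they were. A dip of at least 3-fold gave 67 members, 63 of them within 2-fold afterwards, with median log2 ratios of -2.31 during over before and 1.93 after over during, and 4.76%, 0.571% and 3.62% of reads. A dip of at least 1.5-fold gave 202 members, with -1.26 and 1.02, and 19.0%, 5.29% and 14.8%. Ranked by the mean of the 3 libraries, the lowest and highest quartiles held 11.9% and 17.1% members. Apart from the settings named for each, the counts stayed within 1.5 times of those reported. Median length stayed between 354 and 381 bases under every setting.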
